A study of Rattus norvegicus with 24 samples.

Results

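The comparison set lungs of control rats at 12 days against lungs of control rats at 6 days, across all genes measured. It used 6 of the 24 samples of a series on whole-cigarette smoke condensate (WCSC) and rat lung, 3 control samples of 12 days and 3 of 6 days. The other 18 samples came from rats given WCSC at 5, 10 or 20 mg/mL, 9 of them at 12 days and 9 at 6 days, and are used here as a second set of lungs at the same days. All samples were lung of wild-type Rattus norvegicus, and total RNA extracted with Trizol was made into Lexogen QuantSeq libraries, which read one end of each polyadenylated transcript. The labels name no strain, age or sex, and they do not say what the control rats received, whether the 3 samples of a group came from separate animals, or whether the samples of both days were collected and sequenced together. A difference between days therefore cannot be told apart from a difference between batches, and p-values measure the spread between samples.

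A control group sampled at both ends of an exposure study gives the drift that any exposed group is read against. Lung tissue mixes gas-exchange epithelium (flat alveolar type 1 cells and surfactant-making alveolar type 2 cells), airway epithelium, a dense capillary bed, connective tissue, resident macrophages and whatever blood remains in the vessels. Red cells carry globin and haem-synthesis transcripts while they are young reticulocytes and lose them as they mature, so in lung RNA these transcripts mark blood first of all, although alveolar type 2 cells are also known to make some globin. Fewer cells of a type and less RNA per cell cannot be told apart in such libraries.

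Total counts were 5.05e+06 to 7.01e+06 in the 12-day controls and 6.70e+06 to 8.67e+06 in the 6-day controls. The lung markers were abundant in all 6 libraries. Sftpc, the surfactant protein C of type 2 cells, stood at 9921, 8552 and 7905 CPM (counts scaled to the size of the library) in 12-day controls and 11077, 8915 and 8019 CPM in 6-day controls. Ager, the advanced glycation receptor of type 1 cells, stood at 7694, 4981 and 5436 CPM in 12-day controls and 6681, 3813 and 4319.6 CPM in 6-day controls. Scgb1a1, the secretory protein of club cells, stood at 7931, 10277 and 9349 CPM in 12-day controls and 9062, 12979 and 16979 CPM in 6-day controls. In each day some libraries stood apart. Replicate 1 of the 6-day controls had the fewest genes with a read, 11545 when all libraries were thinned to one depth, where the others of that day had 12180 and 12409, and the largest summed level of globin and of ribosomal protein genes. Replicate 1 of the 12-day controls had 11751 such genes, where the others of that day had 12140 and 12296, and its correlation with the other control libraries (r of log2 CPM across genes) was 0.926 to 0.942, where pairs without it had 0.938 to 0.971. Ribosomal RNA took 9.24% of its counts, against 4.46 and 6.65% in the other 12-day controls and 3.63 to 6.04% in the 6-day controls. Replicate 2 of the 12-day controls had the highest summed level of heart muscle genes.

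No gene passed the threshold between the days. With edgeR's quasi-likelihood test over 11421 genes, 0 genes (0%) had an adjusted p under 0.05, and the smallest adjusted p rounded to 1. DESeq2 and limma voom with sample weights also called 0 genes, with smallest adjusted p of 1 and 0.156. At an unadjusted p under 0.05, edgeR counted 281 genes (2.46%), 134 with the higher level at 12 days (1.17%) and 147 with the lower level (1.29%), DESeq2 counted 353 and voom 1573. If no gene differed, about 571 of 11421 would be expected at that level. The levels of the 3 and 3 libraries did not overlap for 1018 genes (8.91%), 539 of them higher at 12 days (4.72%) and 479 lower (4.19%). Without replicate 1 of the 6-day controls, replicate 1 of the 12-day controls or replicate 2 of the 12-day controls, edgeR again called 0 genes, and 308, 313 and 370 had an unadjusted p under 0.05.

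The depth and the spread set what could have been seen. Among the 9276 genes with at least 5 CPM, the median SE of the log2 fold change was 0.294. For 6313 of them (68.1%) the 95% interval of the 12-day over 6-day ratio lay wholly within 2-fold in either direction. Libraries of different days were about as alike as libraries of the same day. Pearson's r of log2 CPM across genes was 0.926 to 0.965 over the 9 pairs of different days (median 0.951) and 0.927 to 0.971 over the 6 pairs of the same day (median 0.942).

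**Figure D1:**
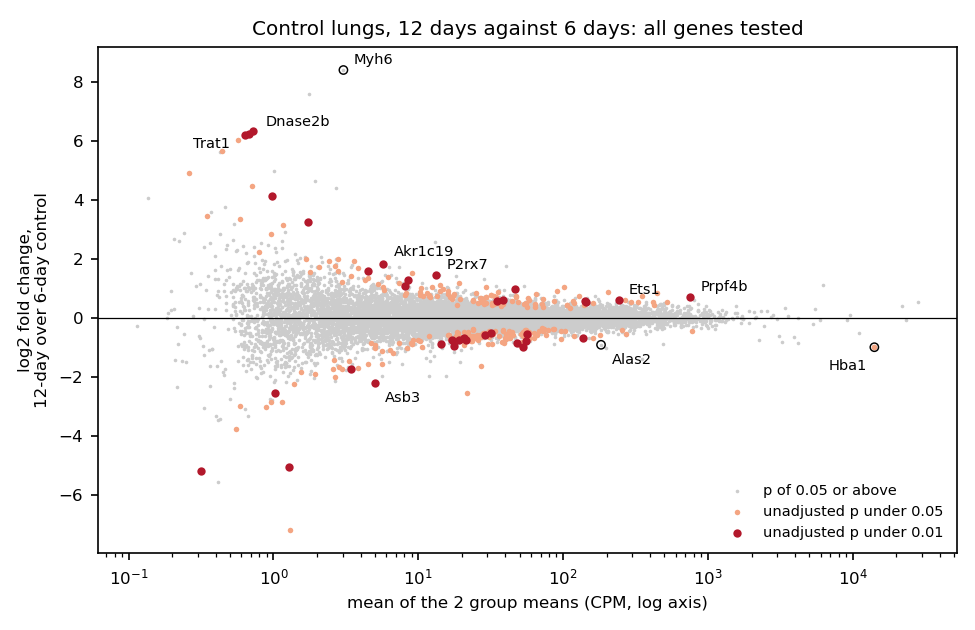
Log2 fold change of 12-day over 6-day control lungs (y axis) against the mean of both group means in CPM (x axis, log scale) for each of the 11421 genes tested, with genes of unadjusted p under 0.05 in orange and under 0.01 in red. Most genes of at least 5 CPM lie close to 0, and no gene passed after adjustment.

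Red cell transcripts were mostly lower at 12 days, and none passed adjustment. Hba1, an adult alpha globin gene, stood at 11396, 8962 and 7840.5 CPM in 12-day controls, against 24989.9, 19039.8 and 12376 CPM in 6-day controls. All 3 of the 12-day libraries lay below all 3 of the 6-day libraries. The log2 fold change was -1.0 (SE 0.472, 95% interval -1.98 to -0.02, unadjusted p = 0.0455). Hba2, its near-identical copy, had nearly the same count in each library and a log2 fold change of -1.0, so the pair counts as 1 observation and the split of reads between the copies is uncertain. Alas2, the red cell enzyme that starts haem synthesis, stood at 157, 128 and 94.6 CPM in 12-day controls, against 331, 227 and 159 CPM in 6-day controls. These groups came within 2 CPM of each other, and the log2 fold change was -0.92 (SE 0.446, unadjusted p = 0.0514).

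Ahsp, the chaperone that holds free alpha globin, stood at 9.5, 16.8 and 13.7 CPM in 12-day controls, against 72.2, 38.4 and 12.8 CPM in 6-day controls. Its groups overlapped through replicate 3 of the 6-day controls, and its log2 fold change was -1.62 (SE 0.612, unadjusted p = 0.0146). Hbb, an adult beta globin gene, stood at 2541, 2678 and 1894 CPM in 12-day controls, against 7531, 2928 and 2011 CPM in 6-day controls, and its log2 fold change was -0.81 (SE 0.622, unadjusted p = 0.206). Most of that difference came from 1 library, since the log2 fold change was -0.06 without replicate 1 of the 6-day controls. Without the same library the log2 fold change was -0.74 for Hba1, -0.61 for Alas2 and -0.94 for Ahsp.

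Of the 13 red cell genes tested, 10 were lower and 3 higher at 12 days, where 52.1% of all genes were lower. An unadjusted p under 0.05 was reached by 3 of the 13, Hba1, Hba2 and Ahsp, all lower (background 1.29% of genes), and by none that was higher. Separate groups were found for 3 that were lower, Hba1 among them, and for 1 that was higher. Over all genes these shares were 4.19% and 4.72%. Hba1 and Hba2 are the pair that counts as 1 observation, so every count of this list overstates the number of separate observations. The median log2 fold change was -0.48, against -0.01 over all genes tested. It was -0.21 without replicate 1 of the 6-day controls, and from -0.76 to -0.34 when any other control library was left out. The summed level of the list was 27589, 22424 and 19056 CPM in 12-day controls, against 62795, 43514 and 28127 CPM in 6-day controls.

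**Figure D2:**
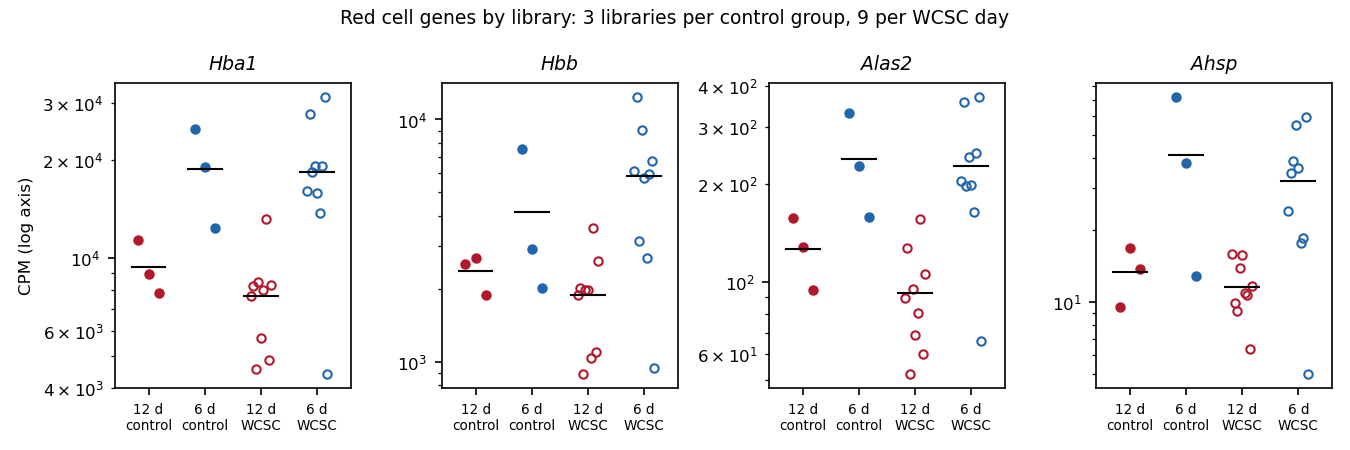
Levels of 4 red cell genes in CPM (y axis, log scale) in each library, with 12-day controls and 6-day controls as filled points (3 each), 12-day and 6-day WCSC lungs as open points (9 each) and the group mean as a bar. Hba1 did not overlap between the control days, Hbb and Ahsp did, and 1 WCSC library of 6 days lay below all 9 of 12 days for Hba1 and Ahsp.

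The WCSC lungs gave a comparison of the same days in libraries that the controls do not share. It is not an independent repeat, since the days there may also differ in exposure to WCSC. Both contrasts came from the same fit, and a batch tied to the day could be shared by both sets. In WCSC lungs 0 of 11421 genes (0%) passed in the edgeR fit for 12 against 6 days over the 3 doses together. The smallest adjusted p was 0.178. An unadjusted p under 0.05 was reached by 8.72% of all genes, 3.62% higher and 5.1% lower at 12 days. Of the 13 red cell genes, 12 were lower at 12 days and 11 had an unadjusted p under 0.05 in that direction. The list's median log2 fold change was -1.30. Hba1 had 4566, 8018 and 13177 CPM as lowest, median and highest level in the 9 WCSC lungs of 12 days, against 4402, 18402 and 31243 CPM in the 9 of 6 days. Its log2 fold change there was -1.27 (unadjusted p = 0.000124), and that of Alas2 was -1.30 (unadjusted p = 4.94e-05, adjusted p = 0.178 by edgeR). The control minus WCSC difference of these day effects for Hba1 was 0.27 on the log2 scale (unadjusted p = 0.622), which does not show that the effects are alike. The WCSC comparison was chosen after the control values were seen.

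The promoters of the alpha globin, beta globin and Alas2 genes are shown because they are the most abundant red cell transcripts described above and the gene of the enzyme that starts haem synthesis. GATA1 and KLF1, the master regulators of red cell genes, are known to bind GATA-type and CACCC-type sequences. Capitals mark AGATAA and CACCC, searched on both strands (TTATCT and GGGTG on the other). Each sequence runs 5′ to 3′ on the gene's strand from 250 bases before to 50 bases after the RefSeq start in the assembly GRCr8, at chr10:15829089-15829388 (minus strand) for Hba2, which RefSeq lists as Hba-a2, chr1:167663672-167663971 (minus strand) for Hbb and chrX:22895200-22895499 (plus strand) for Alas2.
Hba2: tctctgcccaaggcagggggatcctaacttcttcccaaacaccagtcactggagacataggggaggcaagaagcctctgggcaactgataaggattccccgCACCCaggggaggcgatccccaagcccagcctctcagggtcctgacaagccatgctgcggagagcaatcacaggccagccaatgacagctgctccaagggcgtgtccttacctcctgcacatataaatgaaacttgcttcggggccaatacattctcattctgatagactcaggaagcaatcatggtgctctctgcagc
Hbb: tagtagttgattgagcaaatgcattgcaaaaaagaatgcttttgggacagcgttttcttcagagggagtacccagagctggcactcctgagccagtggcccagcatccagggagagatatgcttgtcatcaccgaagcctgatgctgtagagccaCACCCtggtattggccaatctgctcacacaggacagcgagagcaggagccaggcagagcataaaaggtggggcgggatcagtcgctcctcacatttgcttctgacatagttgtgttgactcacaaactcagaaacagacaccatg
Alas2: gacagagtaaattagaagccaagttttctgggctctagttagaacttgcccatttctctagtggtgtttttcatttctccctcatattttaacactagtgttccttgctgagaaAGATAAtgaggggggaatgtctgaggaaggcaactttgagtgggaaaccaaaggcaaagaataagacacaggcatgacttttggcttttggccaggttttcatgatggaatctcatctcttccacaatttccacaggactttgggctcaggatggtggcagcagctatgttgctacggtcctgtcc
The Alas2 window held AGATAA and the globin windows each held CACCC. Other GATA-type strings, such as the tgataa in the Hba2 window, were not searched and are not marked. Of the 13 red cell genes tested, 8 matched a single RefSeq promoter in the table used. Hba1 was left out because it matched both Hba-a1 and Hba-a2. AGATAA lay in 3 of those 8, where 11.6% of all 33469 promoters held it, and CACCC in 6 of 8, where 54.9% did. A match is a string of letters in this window and not a measured binding site.

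The genes with the smallest p were of varied kinds. Picking by p favours separate groups, so for these genes separation is no further result. Trat1, a T cell receptor adaptor, was at 0.404, 2.17 and 1.25 CPM in 12-day controls and had 0 counts in every 6-day control. Taking 3 counts over the group as the floor, its level was at least 9.48-fold higher at 12 days (edgeR unadjusted p = 0.000595). In WCSC lungs it had the opposite sign, with a log2 fold change of -1.36 (unadjusted p = 0.0219). Dnase2b, an acid endonuclease, was at 3.03, 0.361 and 0.971 CPM in 12-day controls and had 0 counts in every 6-day control, which made it at least 10.8-fold higher (unadjusted p = 0.00297). Both genes were near the limit of detection at this depth.

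Akr1c19, an aldo-keto reductase, stood at 9.9, 6.86 and 9.99 CPM in 12-day controls, against 1.28, 2.98 and 3.38 CPM in 6-day controls (log2 fold change 1.81, SE 0.495, unadjusted p = 0.00137). Eva1a, a membrane protein linked to autophagy, stood at 6.67, 5.42 and 8.05 CPM in 12-day controls, against 2.42, 1.63 and 2.67 CPM in 6-day controls (log2 fold change 1.58, SE 0.45, unadjusted p = 0.00195). P2rx7, an ion channel opened by extracellular ATP, stood at 17.99, 18.1 and 21.9 CPM in 12-day controls, against 4.34, 6.64 and 10.3 CPM in 6-day controls (log2 fold change 1.45, SE 0.456, unadjusted p = 0.00429). The groups of all 3 genes were separate. In WCSC lungs their log2 fold changes were -0.26, -0.13 and 0.14 with unadjusted p of 0.348, 0.622 and 0.596.

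On the lower side, Abcc3, an export pump for glucuronides and other organic anions, stood at 13.9, 9.03 and 12.6 CPM in 12-day controls, against 24.5, 22.1 and 23.4 CPM in 6-day controls (log2 fold change -0.97, SE 0.291, unadjusted p = 0.00291). Dnaja1, a co-chaperone of heat shock protein 70, stood at 70.9, 128 and 115 CPM in 12-day controls, against 197, 156 and 154 CPM in 6-day controls (log2 fold change -0.69, SE 0.214, unadjusted p = 0.00392). Fam65b, an inhibitor of the small GTPase RhoA, stood at 33.1, 46.4 and 41.2 CPM in 12-day controls, against 65.9, 64.2 and 79.8 CPM in 6-day controls (log2 fold change -0.80, SE 0.251, unadjusted p = 0.00429). Its value in WCSC lungs had the same sign, with a log2 fold change of -0.49 (unadjusted p = 0.00255). Ndufaf7, an assembly factor of respiratory complex I, and Prr5, a subunit of the kinase complex mTORC2, had log2 fold changes of -0.77 and -1.72 with separate groups.

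**Figure D3:**
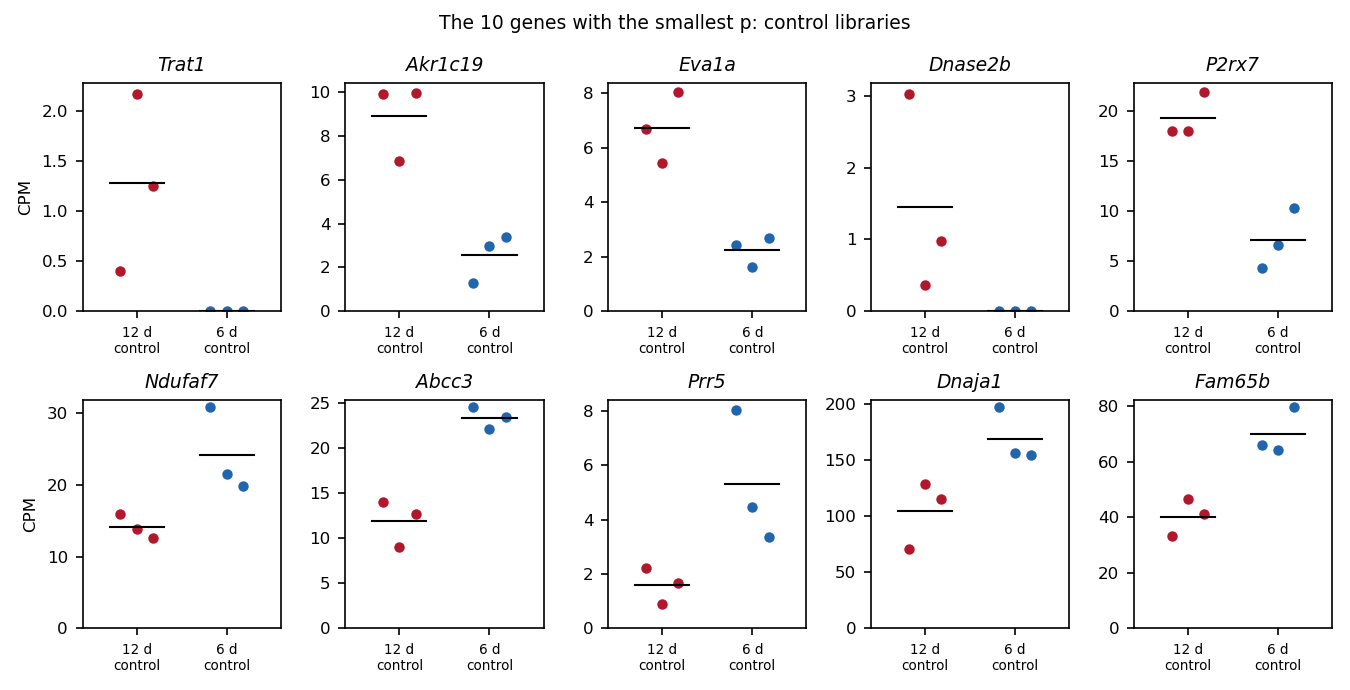
Levels in CPM (y axes, linear from 0) of the 10 genes with the smallest p in each control library, 12-day controls in red and 6-day controls in blue, with the group mean as a bar. The 12-day and 6-day libraries do not overlap for any of the 10, which picking by p favours, and their adjusted p all rounded to 1.

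Genes of higher level were also among those named. Prpf4b, a kinase of the splicing machinery, stood at 957, 847 and 979.9 CPM in 12-day controls, against 485, 584 and 639.9 CPM in 6-day controls (log2 fold change 0.70, SE 0.228, unadjusted p = 0.00539). Its log2 fold change in WCSC lungs was 0.42 (unadjusted p = 0.00411). Ets1, a transcription factor of lymphocytes and endothelium, stood at 304, 280.0 and 291 CPM in 12-day controls, against 179, 192 and 203 CPM in 6-day controls (log2 fold change 0.61, SE 0.208, unadjusted p = 0.00773). Sbno1, Elf2, Kin and Zbtb8a, which encode nuclear proteins, had log2 fold changes of 0.57, 0.58, 0.60 and 1.08. Separate groups were a condition for naming these genes and are not a result.

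Glrx5, a mitochondrial glutaredoxin of iron-sulphur cluster assembly that zebrafish and human red cells need to make haem, stood at 32.9, 32.5 and 39.7 CPM in 12-day controls, against 111, 49.9 and 50.5 CPM in 6-day controls. Its log2 fold change was -1.0 (SE 0.332, unadjusted p = 0.00619), and -0.52 in WCSC lungs (unadjusted p = 0.0121). Replicate 1 of the 6-day controls was the highest library, and the log2 fold change in controls was -0.52 without it. Asb3, a substrate adaptor of a ubiquitin ligase, stood at 2.63, 0.903 and 1.8 CPM in 12-day controls, against 8.93, 9.08 and 6.76 CPM in 6-day controls (log2 fold change -2.21, SE 0.749, unadjusted p = 0.00722). In WCSC lungs Asb3 had the opposite sign (0.49, unadjusted p = 0.225). Ccdc64, Sipa1l3, Lztr1 and Memo1, also named on condition of separate groups, had log2 fold changes of -0.90, -0.86, -0.77 and -0.75. That of Lztr1 was -0.50 without replicate 1 of the 6-day controls.

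Set beside the WCSC lungs, 26 of the 35 genes with an unadjusted p under 0.01 in the controls (0.306% of genes) had the same sign and 9 the opposite sign. Of the 281 genes with an unadjusted p under 0.05, 206 (73.3%) had the same sign, and 30 of those also had an unadjusted p under 0.05 in WCSC lungs. Such a p in WCSC lungs was reached by 8.72% of all genes tested, in either direction. Over all genes tested, 6576 (57.6%) had the same sign in both sets. A test of the difference between the control and WCSC day effects called 0 genes (edgeR, smallest adjusted p rounding to 1), and 204 (1.79%) had an unadjusted p under 0.05.

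Endothelial genes were mostly a little higher at 12 days. Of 26 tested, 24 were higher and 2 lower, where 47.9% of all genes were higher, and the median log2 fold change was 0.17 in control lungs and 0.05 in WCSC lungs. Cdh5, the junctional VE-cadherin, stood at 153, 94.4 and 108 CPM in 12-day controls, against 49.5, 75.6 and 66.6 CPM in 6-day controls. Its groups were separate, with a log2 fold change of 0.89 (SE 0.428, unadjusted p = 0.049), and it was the 1 endothelial gene under 0.05. Lyve1, a hyaluronan receptor of lymphatic vessels, had 469, 529.6 and 625 CPM in 12-day controls and 440.1, 351 and 379 CPM in 6-day controls (log2 fold change 0.47, unadjusted p = 0.0843). The summed level of the list was 8096, 6155 and 6814 CPM in 12-day controls, against 5991, 6048 and 6124 CPM in 6-day controls, so that replicate 1 of 12 days was the highest. The median was 0.10 without that library and 0.28 without replicate 2 of the 12-day controls.

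The alveolar epithelium gave small differences. Of 15 type 1 cell genes, 14 were higher at 12 days, with a median log2 fold change of 0.16 and no p under 0.05. That median was 0.28 without replicate 1 of the 6-day controls, and 0.07 without replicate 3 of them or without replicate 1 of the 12-day controls. Of 13 type 2 cell genes, 11 were lower, with a median of -0.05, 0.02 without replicate 1 of the 6-day controls, and again no p under 0.05.

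Airway lists turned on replicate 2 of the 12-day controls. Of 14 club and goblet cell genes, 8 were higher, and the median log2 fold change of 0.13 became -0.92 without that library. Of 17 ciliated cell genes, 12 were lower, and the median of -0.22 became -1.14 without it and 0.07 without replicate 1 of the 12-day controls. Rsph1, a radial spoke protein of motile cilia, stood at 2.63, 17.2 and 6.66 CPM in 12-day controls, against 13.6, 18.02 and 15.9 CPM in 6-day controls, and only replicate 2 of 12 days reached the 6-day range. Spdef, a transcription factor of goblet cells, stood at 2.43, 4.33 and 3.19 CPM in 12-day controls, against 5.23, 5.01 and 9.99 CPM in 6-day controls (log2 fold change -1.02, SE 0.427, unadjusted p = 0.026), with separate groups, and -0.62 without replicate 3 of the 6-day controls. Cyp2b1, a cytochrome P450 of club cells, and Sec14l3, a lipid-binding protein of airway epithelium, had log2 fold changes of 0.41 and 0.62 with separate groups, and that of Sec14l3 was 0.40 without replicate 2 of the 12-day controls.

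Heart muscle genes marked the same library. Myh6, the alpha myosin heavy chain of heart muscle, had 18.2 CPM in replicate 2 of the 12-day controls and 0 counts in the other 5 libraries. Of 16 heart muscle genes, 14 were higher at 12 days, and the median log2 fold change of 1.91 became -0.06 without replicate 2. Setting the 4 members with 0 counts at 6 days to their lower bound left that median at 1.91. The summed level was 55.0, 186 and 74.7 CPM in 12-day controls, against 49.5, 68.6 and 111 CPM in 6-day controls. In the 18 WCSC lungs it ranged from 29.3 to 4026 CPM. The part of this library's tissue make-up in the airway values was not tested.

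**Figure D4:**
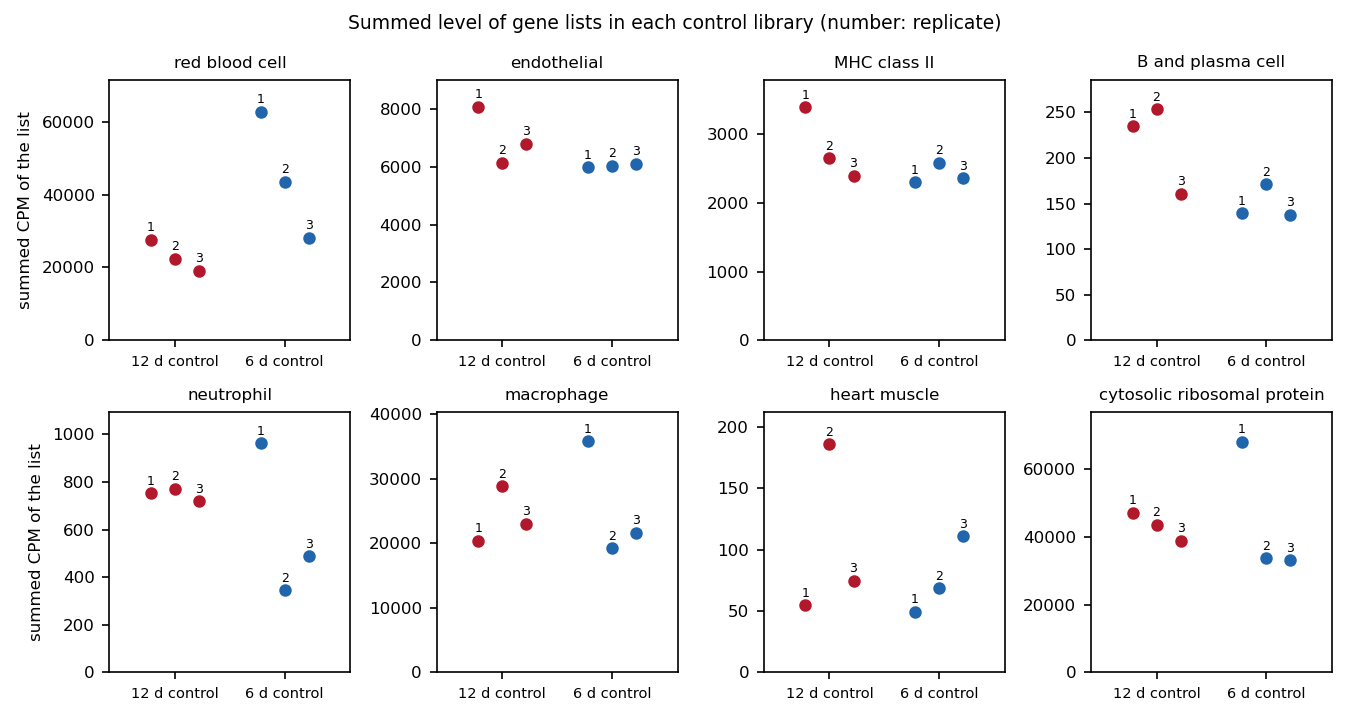
Summed CPM (y axes, linear from 0) of 8 gene lists in each control library, 12-day controls in red and 6-day controls in blue, with the replicate number above each point. The 3 red cell sums of 12 days lie below those of 6 days, replicate 2 of 12 days is highest for heart muscle, and replicate 1 of 6 days is highest for red cell, neutrophil, macrophage and ribosomal protein genes.

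Of 29 extracellular matrix genes 20 were lower, with a median log2 fold change of -0.13, and of 12 smooth muscle genes 10 were lower, with a median of -0.14. The matrix median was -0.03 without replicate 1 of the 12-day controls and -0.05 without replicate 3 of the 6-day controls, and the smooth muscle median was 0.09 without the second of these libraries. In WCSC lungs the smooth muscle median had the other sign (0.12). Among 12 fibroblast and pericyte genes, 8 were lower and 3 of these had separate groups, where 4.19% of all genes were lower with separate groups. Tcf21, a transcription factor of lung fibroblasts, stood at 31.7, 28.7 and 38.0 CPM in 12-day controls, against 48.6, 43.9 and 51.8 CPM in 6-day controls (log2 fold change -0.55, SE 0.262, unadjusted p = 0.0471). Inmt, an amine methyltransferase abundant in lung, went the other way at 54.8, 46.6 and 53.6 CPM in 12-day controls, against 24.2, 25.7 and 29.8 CPM in 6-day controls (log2 fold change 0.96, SE 0.509, unadjusted p = 0.073).

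Of the insulin-like growth factor genes, 2 were lower with an unadjusted p under 0.05. Igfbp4, a secreted binding protein that holds the growth factors inactive, stood at 136, 139.6 and 152 CPM in 12-day controls, against 209, 224 and 211 CPM in 6-day controls (log2 fold change -0.59, SE 0.217, unadjusted p = 0.0124). Socs2, which dampens growth hormone signalling, stood at 0.809, 0.361 and 0.833 CPM in 12-day controls, against 3.06, 2.3 and 1.97 CPM in 6-day controls (log2 fold change -1.84, SE 0.852, unadjusted p = 0.0418). Igf2r, the clearance receptor for the second factor, had a log2 fold change of -0.32 with separate groups. In all, 9 of 15 members were lower, 3 of them with separate groups (4.19% of all genes) and 2 with p under 0.05 (1.29% of all genes). The median was -0.32, and -0.15, -0.10 and -0.09 without replicate 2 or 3 of the 6-day controls or replicate 1 of the 12-day controls. In WCSC lungs 10 of the 15 were higher and the median was 0.11.

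Lymphoid and antigen-presentation genes were mostly higher at 12 days in control lungs. Of 14 B and plasma cell genes 13 were higher, with a median log2 fold change of 0.50 in control lungs and -0.13 in WCSC lungs, and none had a p under 0.05. Their summed level was 235, 254 and 161 CPM in 12-day controls, against 139.5, 172 and 138 CPM in 6-day controls. The median was 0.28 without replicate 2 of the 6-day controls and 0.27 without replicate 1 of the 12-day controls. Ms4a1, the B cell antigen CD20, stood at 17.4, 7.94 and 7.63 CPM in 12-day controls, against 7.53, 5.29 and 6.05 CPM in 6-day controls, which did not overlap (log2 fold change 0.80, SE 0.724, unadjusted p = 0.283). Without replicate 1 of the 12-day controls its log2 fold change was 0.31. Whether the lists differ between control and WCSC lungs was not tested as a list. Gene by gene the difference had an unadjusted p of 0.298 for Ms4a1 and 0.0592 for RT1-Db1.

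All 7 major histocompatibility complex class II genes tested were higher, with a median log2 fold change of 0.28 in control lungs and -0.05 in WCSC lungs. RT1-Db1, a class II beta chain, stood at 787, 637 and 433 CPM in 12-day controls, against 436, 334 and 519 CPM in 6-day controls (log2 fold change 0.53, SE 0.252, unadjusted p = 0.0484). Its groups overlapped. RT1-DMa, which helps load peptides onto class II, had a log2 fold change of 0.59 (unadjusted p = 0.0851), and replicate 1 of the 12-day controls was the highest library for both. Without that library the log2 fold change was 0.32 for RT1-Db1 and 0.17 for RT1-DMa, and the median of the 7 genes was 0.17. Of 28 T and natural killer cell genes 21 were higher, with a median of 0.21 in control lungs and -0.12 in WCSC lungs, and Trat1 was the 1 member under 0.05. The T and natural killer cell median was 0.40 without replicate 1 of the 6-day controls and 0.11 without replicate 2 of the 12-day controls. Cd3e, a chain of the T cell receptor complex, stood at 2.63, 4.51 and 4.44 CPM in 12-day controls, against 1.28, 2.17 and 1.83 CPM in 6-day controls. Zap70, the kinase that this receptor recruits, stood the other way at 10.1, 7.22 and 7.63 CPM in 12-day controls, against 15.4, 11.7 and 12.9 CPM in 6-day controls. Both pairs of groups were separate, with unadjusted p of 0.115 and 0.131.

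Neutrophil calprotectin depended on replicate 1 of the 6-day controls. S100a8, a subunit of this antimicrobial protein, stood at 208, 214 and 202 CPM in 12-day controls, against 251, 55.3 and 67.8 CPM in 6-day controls. That 1 library lay above all 12-day libraries and the other 6-day libraries below them, and the log2 fold change of 0.74 (unadjusted p = 0.219) became 1.76 without it. S100a9, the partner subunit, followed the same order, with 0.45 over all libraries and 1.45 without it. Without replicate 2 or 3 of the 6-day controls the log2 fold changes were 0.38 and 0.44 for S100a8 and 0.10 and 0.16 for S100a9. In WCSC lungs S100a8 had the opposite sign (-0.75, unadjusted p = 0.0353). Of 14 neutrophil genes 8 were higher, with a median of 0.31, which was 0.06 without replicate 2 of the 6-day controls. The 1 gene under 0.05 was Np4, a neutrophil defensin with 2.71 and 0.694 CPM in replicates 2 and 3 of 12 days and 0 counts in the other control libraries. Of 18 macrophage genes 9 were higher and 9 lower, with a median of 0.01.

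Il1b, the inflammasome cytokine interleukin 1 beta, stood at 55.2, 73.1 and 48.2 CPM in 12-day controls, against 54.7, 26.4 and 23.9 CPM in 6-day controls (log2 fold change 0.75, SE 0.339, unadjusted p = 0.0386). Replicate 1 of the 6-day controls overlapped the 12-day range, and the log2 fold change was 1.22 without it. Its WCSC value had the opposite sign (-0.49, unadjusted p = 0.0199), and the difference between control and WCSC day effects had an unadjusted p of 0.0046. Tnf, another early inflammatory cytokine, was near the limit of detection at 0.404, 0.181 and 0 CPM in 12-day controls, against 2.68, 0.949 and 1.13 CPM in 6-day controls. These were 3 counts over the 12-day group and 36 over the 6-day group, a ratio of 0.105 (95% interval 0.0207 to 0.333 from counting error only), with an edgeR unadjusted p of 0.0146. Over the 19 cytokine and NF-kB genes 9 were higher and 10 lower, with a median of -0.06, and 0.17 without replicate 1 of the 6-day controls. Interferon-response genes were as even, with 14 of 27 higher and a median of 0.00, from -0.16 without replicate 1 of the 12-day controls to 0.21 without replicate 1 of the 6-day controls.

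Mast cell, mesothelial and complement genes were mostly lower at 12 days, and the same 6-day library was the highest for several of them. Tpsb2, a mast cell tryptase, stood at 1.62, 8.31 and 20.1 CPM in 12-day controls, against 62.8, 16.7 and 7.6 CPM in 6-day controls, and its log2 fold change of -1.51 became -0.25 without replicate 1 of 6 days and -2.53 without replicate 3 of 12 days. The median of 17 mast cell and eosinophil genes was -0.49, and 0.15 without replicate 1 of 6 days or -0.14 without replicate 1 of 12 days. In WCSC lungs the median of these genes was -0.52, with 15 of the 17 lower and 1 of these under an unadjusted p of 0.05. All 7 mesothelial genes were lower, with a median of -0.40, and 0.03 without replicate 1 of 6 days. C6, a component of the membrane attack complex, stood at 5.46, 6.5 and 7.08 CPM in 12-day controls, against 88.1, 17.1 and 6.33 CPM in 6-day controls, and its log2 fold change of -2.54 (unadjusted p = 0.0185) became -0.88 without that library. Of 19 complement genes 13 were lower, with a median of -0.07, and Cfp, the stabiliser of the alternative pathway convertase, was among the 6 that were higher (log2 fold change 0.43, unadjusted p = 0.0488, separate groups).

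**Figure D5:**
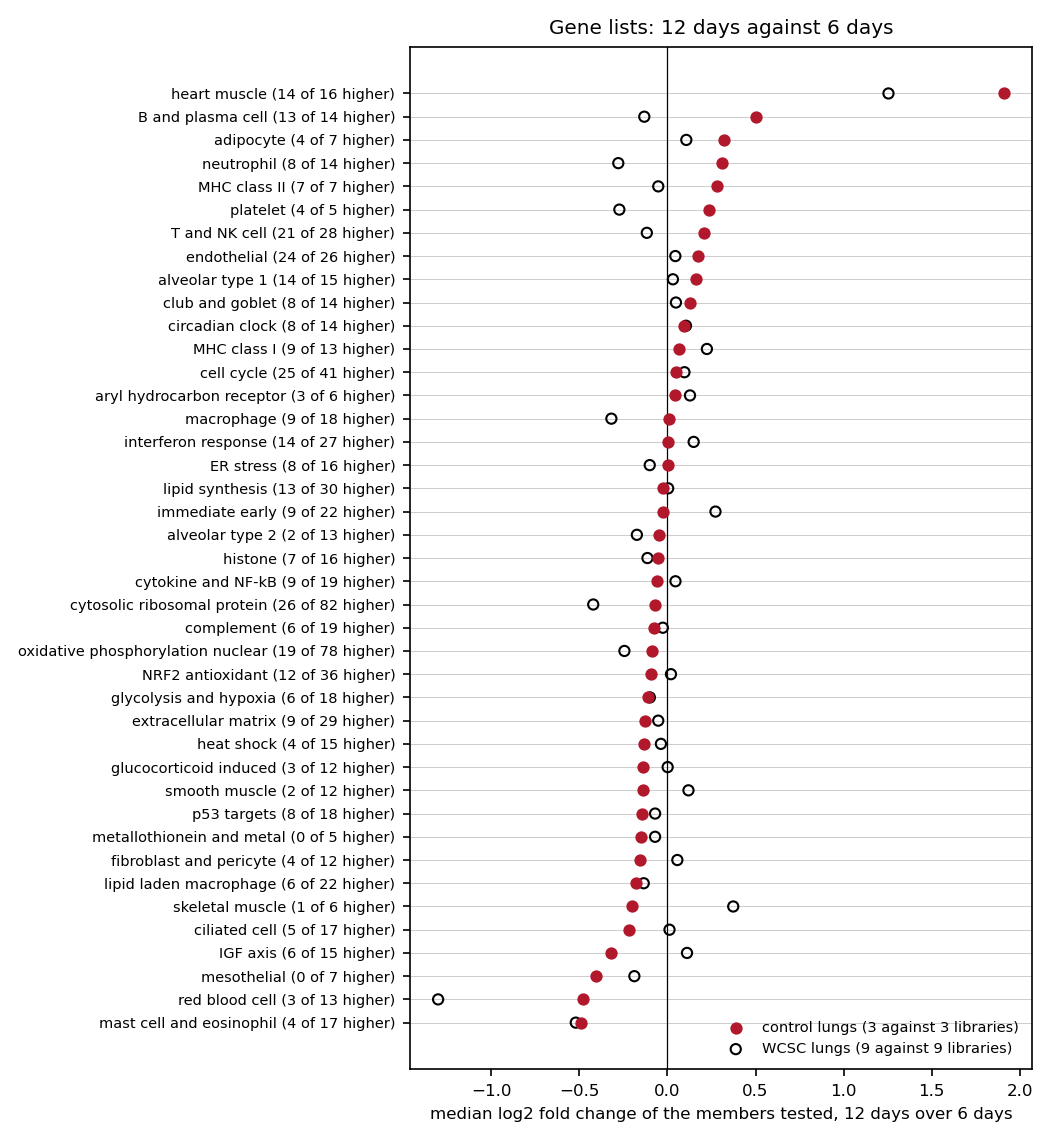
Median log2 fold change of 12 over 6 days (x axis) for each gene list with at least 5 members tested, in control lungs (filled, 3 against 3 libraries) and WCSC lungs (open, 9 against 9 libraries), with the number of members higher in control lungs beside each name. Red cell genes are lower in both sets, and B and plasma cell and class II genes are above 0 in control lungs and below 0 in WCSC lungs.

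Genes that answer tobacco smoke were part of the comparison because they set the level that exposed lungs are read against. Among 36 genes of the NRF2 antioxidant programme 24 were lower at 12 days, with a median log2 fold change of -0.09 in control lungs (0.00 without replicate 1 of the 6-day controls) and 0.02 in WCSC lungs. Hmox1, which breaks down haem, stood at 42.6, 40.3 and 28.3 CPM in 12-day controls, against 95.7, 43.6 and 59.4 CPM in 6-day controls (log2 fold change -0.84, SE 0.345, unadjusted p = 0.0233). The groups were separate, and the log2 fold change was -0.48 without replicate 1 of the 6-day controls. Abcc3, described above, was the other NRF2 gene under 0.05. In WCSC lungs neither median was lower at 12 days. Hmox1 had median levels of 63.8 CPM at 12 days and 47.3 CPM at 6 days there, and Abcc3 14.6 and 13.3 CPM. Ahr, the receptor for dioxins and smoke hydrocarbons, stood at 200.3, 124 and 188 CPM in 12-day controls, against 117, 127 and 109 CPM in 6-day controls (log2 fold change 0.54, SE 0.19, unadjusted p = 0.00997), and its groups overlapped. Cyp1a1, its classic target, varied widely within both days, at 0.606, 5.06 and 13.9 CPM in 12-day controls and 13.0, 20.9 and 2.67 CPM in 6-day controls.

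Clock genes were read because the hour of sampling alters them. Dbp, a clock output factor, stood at 16.6, 13.4 and 10.5 CPM in 12-day controls, against 4.97, 9.89 and 9.57 CPM in 6-day controls (log2 fold change 0.73, SE 0.346, unadjusted p = 0.0474). It was 0.47 without replicate 1 of the 6-day controls. Tef, a related factor, had a log2 fold change of 0.44 (unadjusted p = 0.0703), and both had separate groups. Of 14 clock genes 8 were higher and 6 lower, with a median of 0.09, and Arntl, a core activator, was among the higher ones (0.48, unadjusted p = 0.144). The part of the sampling hour in these values was not tested. Of 12 glucocorticoid-induced genes 9 were lower, with a median of -0.14, 0.04 without replicate 3 of the 6-day controls, and no p under 0.05.

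In the stress and metabolic lists at most 1 gene each had a p under 0.05. Of 15 heat shock genes 11 were lower (median -0.13, and 0.03 without replicate 1 of the 6-day controls), and of 16 endoplasmic reticulum stress genes 8 were higher and 8 lower (median 0.00), with none under 0.05 in either. Calr, Hsp90b1 and Pdia4, chaperones of the reticulum, had log2 fold changes of 0.42, 0.40 and 0.80, and Hyou1, a further one, -0.33, all with separate groups. Of the 16 genes, 4 were higher and 2 lower with separate groups, where 4.72% and 4.19% of all genes were. Scd1, the desaturase that makes oleate, stood at 306, 240.3 and 237 CPM in 12-day controls, against 108, 123 and 200.1 CPM in 6-day controls (log2 fold change 0.86, SE 0.382, unadjusted p = 0.0342). It was the 1 gene of 30 in lipid synthesis under 0.05, and the list's median was -0.02, where its mean was 0.12. Cdkn1a, the cell cycle inhibitor p21 and a target of p53, stood at 27.3, 63.6 and 35.8 CPM in 12-day controls, against 54.2, 73.6 and 87.4 CPM in 6-day controls (log2 fold change -0.76, SE 0.299, unadjusted p = 0.0178). Without replicate 2 of the 12-day controls its log2 fold change was -1.18. Of 41 cell cycle genes 25 were higher, with a median of 0.05 and no p under 0.05. The 22 immediate early genes had a median of -0.03 (mean 0.01) in control lungs, with 9 higher, and 0.27 in WCSC lungs, with 18 higher. Of 18 glycolysis and hypoxia genes 12 were lower (median -0.11), and of 22 genes of lipid-laden macrophages 16 were lower (median -0.18).

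Housekeeping lists leaned lower by small amounts that 1 library set. Of 82 cytosolic ribosomal protein genes 56 were lower, with a median log2 fold change of -0.07, which became 0.37 without replicate 1 of the 6-day controls. Of 78 nuclear genes of oxidative phosphorylation 59 were lower, with a median of -0.09, which became 0.18 without it. In WCSC lungs these medians were -0.42 and -0.24, with 78 of 82 and 71 of 78 genes lower. The summed ribosomal protein level was 47223, 43626 and 38933 CPM in 12-day controls, against 68139, 33699 and 33085 CPM in 6-day controls.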

How the data were processed

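The authors deposited unnormalized counts of reads for gene symbols, with a file for each sample. Per the submitters' processing notes, Bowtie2, bedtools and the build rn6 were used. Annotation, filters, strand setting and tool versions were not given in the sources used here. Each file held 17048 lines and 16881 symbols. For the 149 repeated symbols the line with the highest total was kept, and the 167 lines dropped held 0.772% of the counts.

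Counts of all 24 libraries were fitted with edgeR 4.0.16 (filterByExpr, TMM scaling, quasi-likelihood test, 8 group means, 16 residual degrees of freedom) in R 4.3.3. The contrast was the 12-day minus the 6-day control, two-sided, with Benjamini-Hochberg adjustment over 11421 genes and a threshold of 0.05. CPM are TMM-scaled. The fit was tested on simulated data. The 12-day against 6-day contrast of the mean of the 3 WCSC doses, and its difference from the control contrast, came from the same fit and were added after the control values were seen.

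The 44 gene lists and the comparison itself were chosen with earlier results of these data known. Of these lists, 1 of mitochondrially encoded genes found no member. A list is described by counts, its median and the same over all genes, with no set test. Named genes were any called gene, the 10 with the smallest p, up to 10 rises and 10 falls with p under 0.01, at least 5 CPM and separate groups, and up to 4 members per list by smallest p or highest level. Alternatives were RLE and upper-quartile scaling, no filter, DESeq2 1.42.0, limma 3.58.1 voom with sample weights, controls alone, a replicate block, a test against a 1.5-fold change, repeated symbols or ribosomal RNA and globin genes left out, detected genes as covariate and each control library left out. Leaving out replicate 1 of 6 days with replicate 2 of 12 days was added after seeing the data.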

Additional observations from a re-analysis of the deposited data

How the results depend on the processing

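The count of genes called stayed at 0 under every alternative run, including leaving out each control library. The count at an unadjusted p under 0.05, 281 in the fit reported, was 1573 by limma voom with sample quality weights, 59 when tested against a 1.5-fold change and 477 when detected genes per library entered as a covariate. The smaller count of the 1.5-fold test follows from its construction, and for the others the cause was not tested. The remaining alternatives gave 207 to 353, and leaving out 1 control library gave 265 to 370. With replicate number as a block, 0 genes were called and 319 had an unadjusted p under 0.05, or 207 in the 6 control libraries alone. The labels give both days the same replicate numbers but do not say that a number marks a shared animal or batch. Deviations of same-numbered libraries correlated at 0.00878, -0.0512 and 0.000775, so the numbers were not taken as pairs. Of 74 genes whose fold changes were followed, 73 kept their sign under every alternative that gave a value. Many of these genes were named for a small p or separate groups in these same libraries, which leaves little room for a reversal. The count is therefore no measure of stability. Ckmt2, a heart muscle creatine kinase, had 33 counts over the 12-day controls and 1 over the 6-day controls, with a fitted log2 fold change of -1.82 to 6.79 when 1 control library was left out, the lowest without replicate 2 of the 12-day controls, and -2.29 without that library and replicate 1 of the 6-day controls. Myh6 gave no value without replicate 2 of the 12-day controls, where all counts were 0. The list medians moved by less than the spread between replicates in 724 values under alternatives and by more in 50. With 3 libraries a group, leaving out 1 can hardly move a list's mean level by more than that spread. These counts therefore say little about stability. Not every list kept its sign. The mesothelial median ran from -0.66 to 0.29 under the alternatives and the ribosomal protein median from -0.24 to 0.37. The red cell median stayed below 0 (-0.76 to -0.21), and the B and plasma cell median stayed above 0 (0.27 to 0.59). With 3 libraries a group and 5.05e+06 to 8.67e+06 counts each, the 95% interval lay within 2-fold for 6323 of 11421 genes. Of these, 6313 had at least 5 CPM, so for most weaker genes the interval did not exclude a 2-fold change. These shares do not measure the power to call a gene after adjustment. Akr1c19, with a log2 fold change of 1.81, did not pass.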
